A study of Homo sapiens with 4 samples.

Results

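SAMD9, SAMD9L and 5 human Schlafen genes (SLFN5, SLFN11, SLFN12, SLFN13 and SLFN14) were followed in the pancreatic carcinoma cell line Panc1 and in 3 gemcitabine-resistant clones derived from it. The genes were taken by symbol from the annotation of the array. Each of the 7 symbols had 1 probe, so 7 of the 24460 gene probes are described. All 7 passed the filter for testing, in which a probe had to lie above the limit of measurement in the parental cells or in every clone, and they are compared with 16592 tested genes.

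The parental group was 1 array of Panc1 cells that received no gemcitabine. The resistant group was 3 arrays, with 1 each from GR1, GR3 and GR4, clones that came by limiting dilution from 1 Panc1 population that gemcitabine had selected over 2 months, starting at 2 ng/ml and ending at 30 ng/ml. The labels are at odds over the clone names, since one treatment text lists GR1, GR2 and GR3, and the sample titles were followed. All cells grew in medium with 10% fetal bovine serum. Each group is therefore limited as a model, because the clones share 1 selection, each is a single clone on a single array, and the parental array has no replicate. The p-values measure only the spread among the 3 clones, whose variation the fit takes over for the single parental array.

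SAMD9 and SAMD9L are neighbouring, closely related genes of large cytoplasmic proteins that interferons induce. They restrict poxviruses by stopping protein synthesis, and inherited activating variants of either gene hold back cell growth. The Schlafen genes form a cluster of related genes, several of which are also induced by type I interferon. SLFN11 is recruited to stressed replication forks through single-stranded DNA coated by RPA, where it blocks further replication, and cell lines with little SLFN11 tend to survive DNA-damaging drugs. Several members, SLFN11, SLFN12, SLFN13 and SLFN14 among them, also cut tRNA or ribosomal RNA. SLFN12 does so in complex with the phosphodiesterase PDE3A, and SLFN14 is best known from inherited platelet disorders.

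The promoter sequences of the SAMD9 pair are shown because these are the members that lay lowest in the clones relative to the parental array, and that of SLFN11 because it is the member tied to drug response. The set of RefSeq (GRCh38.p14) promoter sequences used here held an entry for 4 of the 7 genes. It had none for SLFN5, SLFN13 and SLFN14, although RefSeq places these genes on chromosome 17. The 250 bases before each start are printed 5′ to 3′ on the minus strand, from chr7:93117980-93118229 for SAMD9, chr7:93148386-93148635 for SAMD9L and chr17:35373622-35373871 for SLFN11. Capitals mark GAAANNGAAA in SAMD9, the core of the element that interferon-activated ISGF3 binds, its shorter form AAANNGAAA in SAMD9L, and TTCNNNGAA, the element of STAT dimers, in SLFN11.
SAMD9: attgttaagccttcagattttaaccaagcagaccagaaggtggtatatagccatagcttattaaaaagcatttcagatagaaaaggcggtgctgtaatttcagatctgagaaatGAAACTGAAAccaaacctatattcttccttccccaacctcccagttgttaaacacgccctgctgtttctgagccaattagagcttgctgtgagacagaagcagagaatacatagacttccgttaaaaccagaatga
SAMD9L: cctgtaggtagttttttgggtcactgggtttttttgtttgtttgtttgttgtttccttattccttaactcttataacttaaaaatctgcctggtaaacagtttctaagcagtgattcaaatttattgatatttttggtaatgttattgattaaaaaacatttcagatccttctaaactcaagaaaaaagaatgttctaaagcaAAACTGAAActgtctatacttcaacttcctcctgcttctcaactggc
SLFN11: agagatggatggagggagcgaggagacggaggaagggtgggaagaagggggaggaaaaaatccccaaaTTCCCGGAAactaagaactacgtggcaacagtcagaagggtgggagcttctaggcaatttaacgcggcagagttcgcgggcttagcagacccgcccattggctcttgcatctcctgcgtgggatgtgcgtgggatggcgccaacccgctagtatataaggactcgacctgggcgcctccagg

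Both strands of these windows were searched for the 3 motifs. GAAANNGAAA began 136 bases before the start of SAMD9 and was in none of the other 3 promoters, while 3.02% of 34943 RefSeq promoter windows of the same length held it. Its shorter form AAANNGAAA, which every match of the longer motif contains, began 135 bases before the start of SAMD9, 47 before that of SAMD9L and 12 before that of SLFN12, and 9.21% of the windows held it. It was added after the SAMD9L sequence had been read. TTCNNNGAA began 182 bases before the start of SLFN11 and was in 6.56% of the windows. These matches describe letters in a window and show no binding.

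Of the 24460 gene probes, 91.5% to 93.7% lay above the limit on each array, which is the mean of the blank spots plus 2 SD. Spots of 1 bright control probe on the same array, 24 each of 2 probes, differed with an SD of 0.0659 to 0.134 on the log2 scale. Between arrays, blank-subtracted means of 1 control probe were 8855 units in the parental cells and 15546.5, 16703 and 15891 in GR1, GR3 and GR4. Those of the other were 45051 in the parental cells and 45128, 46713 and 42864 in the clones. Only the first probe thus set the parental array clearly below every clone, and the cause was not tested. Precision is limited by having 4 arrays. Each array was a pool of cells, so fewer expressing cells and less RNA per cell cannot be told apart. The arrays carried the epithelial identity of the line: all 4 epithelial markers measured (EPCAM, KRT7, KRT18 and KRT19) were above the limit on every array. Their summed normalized signal was 37288 units in the parental cells and 52055 to 62138 in the clones. EPCAM, KRT7 and KRT18 were higher in every clone than in the parental cells. KRT19 was lower, with log2 signals of 13.34 in the parental cells and 12.28, 13.04 and 12.26 in GR1, GR3 and GR4. None of the 4 passed the test. Of 6 leukocyte markers 3 were above the limit on all 4 arrays, with sums of 109.9 units in the parental cells and 58.3 to 162.3 in the clones. Among them LCP1 had log2 signals of 2.36 in the parental cells and 4.12, 6.83 and 5.35 in GR1, GR3 and GR4, and CD14 had 6.61 in the parental cells and 5.05, 5.39 and 5.07 in the clones, and neither passed the test. The clones lay above the parental array for LCP1 and below it for CD14, and the sum adds probes that share no common scale. PTPRC, which defines leukocytes, was at the floor of 0.61 on the parental array and on GR4. It had log2 signals of 0.96 on GR1 and 0.68 on GR3, little above that floor. Of 3 platelet and megakaryocyte markers 1 was above the limit throughout, with sums of 4.98 to 8.42 units. All 4 fibroblast markers were above the limit, with a sum of 215.0 units in the parental cells and 174.1 to 178.6 in the clones. Of the acinar markers measured, CPA1 was above the limit on no array. CTRB1 was above it on all 4, with log2 signals of 5.64 in the parental cells and 5.55, 5.74 and 5.94 in GR1, GR3 and GR4. The part of these markers in the results below was not tested.

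The question was how the SAMD9 and Schlafen genes differ between the resistant clones and the line they came from. SAMD9 and SAMD9L were below their parental signal by 2-fold or more in all 3 clones, and SLFN5 was lower in all 3 by a smaller amount. SLFN13 lay close to its parental signal, and SLFN11, SLFN12 and SLFN14 were at or near the limit of measurement on every array, the parental one included. By limma, with adjustment over all tested probes and a threshold of 0.05, 1 of the 7 genes fell, SAMD9L, where 1.89% of all tested genes fell. None rose, against 2.17% of all tested genes, and 2 of the 7 (SAMD9 and SAMD9L, both lower) had an unadjusted p under 0.05, as did 31.9% of all tested genes. The rule of 2-fold lower in all 3 clones held for 2 of the 7 genes and for 3.6% of all tested genes, and 0 of the 7 were 2-fold higher in all 3, against 3.66%. Being lower in all 3 clones by any amount held for 3 of the 7 and for 37.8% of all tested genes, which is near the same share. The median log2 difference of the 7 genes was −0.31, and that of all tested genes was −0.0150.

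**Figure D1:**
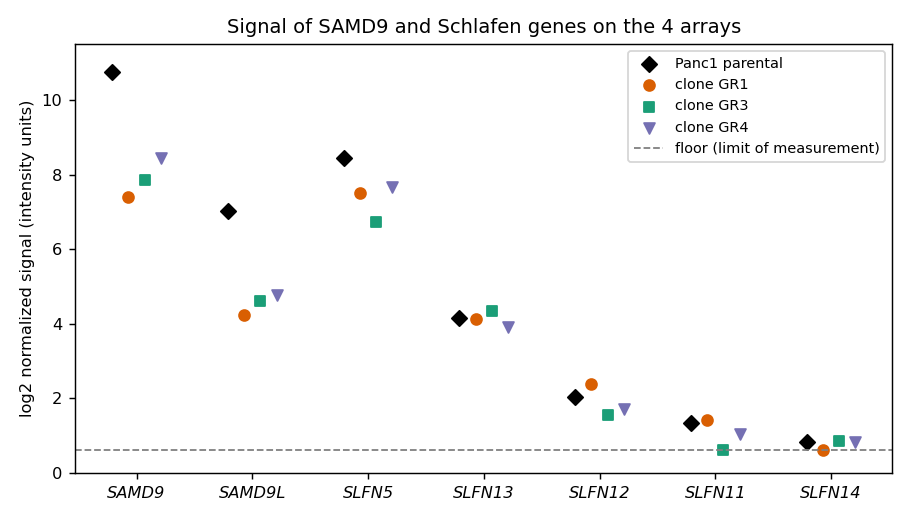
Log2 normalized signal (y axis, arbitrary intensity units) of the 7 genes (x axis) on the parental array and the 3 clones, with 1 point per array and the floor of 0.61 as a dashed line. SAMD9, SAMD9L and SLFN5 show the parental point above all 3 clones, and the points of SLFN11 and SLFN14 lie on or just above the floor. Signals of different probes are not on a common scale, so genes are compared only across arrays.

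SAMD9 gave a log2 signal of 10.76 in the parental cells, 7.40 in GR1, 7.86 in GR3 and 8.44 in GR4. Every clone lay far below the parental array, and the clones themselves spanned 1.04 log2 units, with GR1 lowest and GR4 highest. The parental signal was 10.2-fold that of GR1, 7.47-fold that of GR3 and 4.98-fold that of GR4. The mean log2 difference was −2.86 ± 0.46 (SE, n = 3 clones against 1 parental array), a 7.25-fold lower signal with a 95% interval of 2.89-fold to 18.2-fold. It did not pass limma's threshold over all probes (adjusted p = 0.0601). It passed when the floor was replaced by an offset of 16 units (adjusted p = 0.0145) and among probes above the limit on all 4 arrays (adjusted p = 0.0169), over a range of 0.0145 to 0.211 for all alternatives.

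SAMD9L, the partner gene next to SAMD9, gave 7.03 in the parental cells, 4.24 in GR1, 4.62 in GR3 and 4.77 in GR4. The clones again lay well below the parental array in the same order, within 0.52 log2 units of each other. The parental signal was 6.88-fold that of GR1, 5.31-fold that of GR3 and 4.78-fold that of GR4. SAMD9L fell by 2.48 ± 0.25 on the log2 scale (limma, adjusted p = 0.0448), a 5.59-fold lower signal with a 95% interval of 3.36-fold to 9.30-fold. When normexp was run on spot and background columns, the difference was −0.22 (adjusted p = 0.471), the lowest size over the alternatives, whose adjusted p ran from 0.00582 to 0.471. The background column read 103.8 units beside a spot of 127.4 on the parental array, 81.5% of it, and 48.7% to 83.9% of it in the clones. For SAMD9 it read 6.60% of the spot in the parental cells and 11.8% to 23.2% in the clones, and with normexp the SAMD9 difference was −2.49. The median over all gene probes was 47.6% to 59.6% per array. The call of SAMD9L was also lost with no filter on dim probes (adjusted p = 0.0622) and without GR1, GR3 or GR4 (adjusted p = 0.201, 0.0780 and 0.211), where the differences were −2.31, −2.53 and −2.57.

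**Figure D2:**
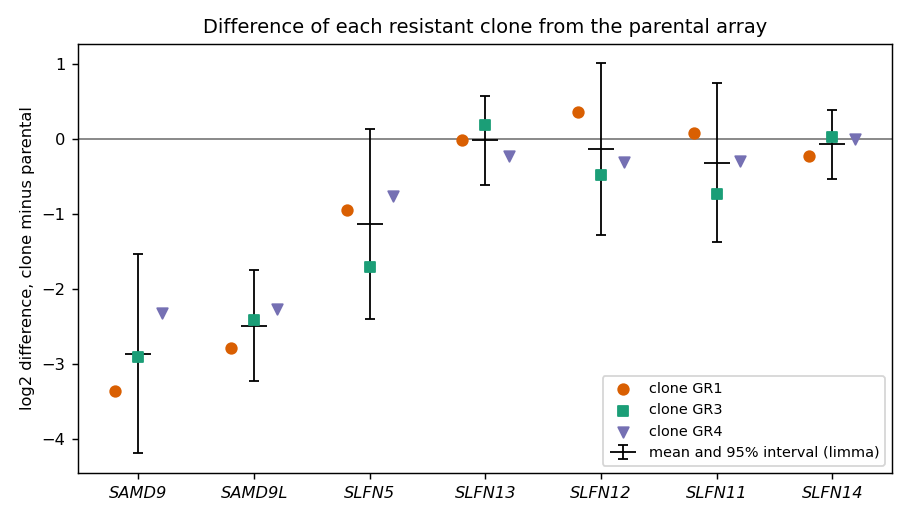
Log2 difference of each clone from the parental array (y axis) for the 7 genes (x axis), with 1 coloured point per clone, and the mean with its 95% interval from limma in black. The intervals of SAMD9 and SAMD9L lie below 0 and those of the 5 Schlafen genes include 0. All differences share the 1 parental array.

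SLFN5, a Schlafen gene with a helicase-like region, had a log2 signal of 8.43 in the parental cells, 7.50 in GR1, 6.74 in GR3 and 7.67 in GR4. GR3 was the lowest of the clones, 0.93 log2 units below GR4, and each clone has 1 array, so that gap has no replicate check. The parental signal was 1.92-fold that of GR1, 3.24-fold that of GR3 and 1.70-fold that of GR4. The mean log2 difference was −1.13 ± 0.44 (adjusted p = 0.194), with an interval of −2.40 to 0.14, so a difference beyond the spread of the clones was not shown. Over the 10 alternatives it stayed below 0, between −1.31 and −0.77, and never passed.

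SLFN11, the replication-fork factor, was barely measurable. Its spot exceeded the blank mean by 2.50 intensity units in the parental cells, 2.84 in GR1, 0.0904 in GR3 and 1.68 in GR4, where the limits were 1.32, 1.36, 1.28 and 1.18 units. It was thus above the limit on the parental array, GR1 and GR4 and not on GR3. Of the 2680 blank spots, which carry no probe, 5.45% in the parental cells, 3.99% in GR1, 41.4% in GR3 and 5.90% in GR4 were at least as bright as the SLFN11 spot. Its log2 signals were 1.34, 1.42, 0.61 and 1.05 in the same order, so the parental array lay between clones. The log2 difference was −0.31 ± 0.37 (adjusted p = 0.615), with an interval of −1.37 to 0.75. It was −0.52 without GR1, −0.11 without GR3 and −0.0467 with normexp. A loss of SLFN11 in the clones was not detectable with this probe, since the parental signal was itself near the limit.

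SLFN12, the partner of PDE3A, gave log2 signals of 2.02 in the parental cells, 2.39 in GR1, 1.55 in GR3 and 1.72 in GR4. GR1 was above and the other clones were below the parental array. The log2 difference was −0.14 ± 0.40 (adjusted p = 0.847; interval −1.28 to 1.01), and 0.597% to 4.10% of blank spots were at least as bright. SLFN13, a tRNA-cleaving member, gave 4.14 in the parental cells, 4.13 in GR1, 4.33 in GR3 and 3.92 in GR4. It was above the limit on all 4 arrays and the parental value lay within the clones, with a log2 difference of −0.0162 ± 0.20 (adjusted p = 0.969). Its interval, −0.61 to 0.58, leaves room for a change of up to 1.52-fold. SLFN14 gave 0.83 in the parental cells, 0.61 in GR1, 0.86 in GR3 and 0.84 in GR4, and was not above the limit on GR1. Its log2 difference was −0.0670 ± 0.16 (adjusted p = 0.810), and 5.86% to 8.51% of blank spots were at least as bright. Schlafen genes resemble each other in sequence, and cross-hybridization between their probes was not tested.

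Whether the low signals reached beyond the members was read from their chromosomal neighbours, the 5 nearest measured protein-coding genes on either side in RefSeq order. Around SAMD9 and SAMD9L on chromosome 7, 0 of 10 neighbours passed limma's threshold, 0 of 10 were 2-fold lower in all 3 clones, and 3 of 10 had an unadjusted p under 0.05. The shares over all tested genes were 4.06%, 3.6% and 31.9%, so these counts are near the background. CDK6, the cell cycle kinase on one side of SAMD9, differed by 1.51 ± 0.19 on the log2 scale (adjusted p = 0.0510) and was 2-fold higher in all 3 clones. HEPACAM2, on the other side of SAMD9L, was at −0.50 ± 0.13 and VPS50, of endosomal sorting, at −0.56 ± 0.21. The lowest of the 10 was GNG11, a G protein subunit, at −1.07 ± 0.20 (adjusted p = 0.0692). With normexp GNG11 was at −1.18, further down than SAMD9L at −0.22, and CDK6 was at 0.37. CALCR, the calcitonin receptor, was at the floor on every array.

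On chromosome 17, SLFN12L, a Schlafen gene within the cluster that is not among the 7, had log2 signals of 3.01 in the parental cells, 2.68 in GR1, 2.19 in GR3 and 2.10 in GR4 and a difference of −0.68 ± 0.29 (adjusted p = 0.219). Of the 10 neighbours outside the cluster 0 passed limma's threshold and 4 had an unadjusted p under 0.05, near the 4.06% and 31.9% of all tested genes. NLE1, a ribosome assembly factor, was at 1.33 ± 0.22 (adjusted p = 0.0629), AP2B1, an adaptor subunit of endocytosis, at 1.24 ± 0.20 (adjusted p = 0.0611) and the metalloprotease MMP28 at −1.15 ± 0.16 (adjusted p = 0.0536). These 3 were 2-fold apart in all 3 clones, in both directions. That made 1 of the 10 neighbours 2-fold lower and 2 of them 2-fold higher, against 3.6% and 3.66% of all tested genes. With normexp NLE1 was at 0.65, AP2B1 at 0.37 and MMP28 at −0.11. RAD51D, a recombination factor, was at 0.48 ± 0.13, and UNC45B, the gene next to SLFN5, at −0.15 ± 0.15. Mean differences of the 5 cluster members ran from −1.13 for SLFN5 to −0.0162 for SLFN13, and differences between members were not tested.

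**Figure D3:**
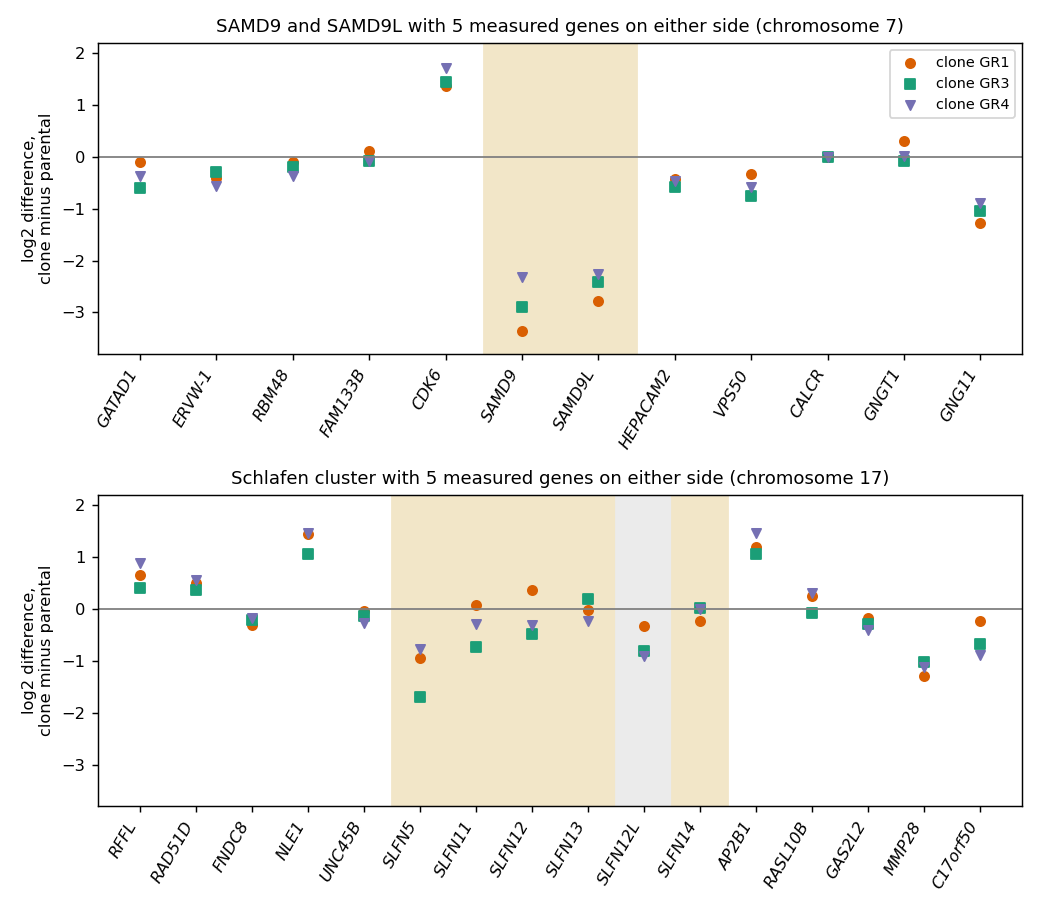
Log2 difference of each clone from the parental array (y axis) for genes in RefSeq order along chromosome 7 (top) and chromosome 17 (bottom), with 1 point per clone. The 7 genes are shaded yellow and SLFN12L grey. SAMD9 and SAMD9L stand below −2 in all 3 clones and no neighbour of theirs reaches −1.5.

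SAMD9 and SAMD9L are interferon-induced genes, so the rest of that response was counted beside them. Of 42 listed interferon-stimulated genes 41 were tested, and IFITM3 was not analysed here. By limma 24 of the 41 fell and 0 rose, against 1.89% and 2.17% of all tested genes. The lowest adjusted p of any tested gene was 0.0442, so every call lay close to the threshold of 0.05. With no filter on dim probes the lowest was 0.0507 and 0 genes passed. All 41 were lower with an unadjusted p under 0.05, which 31.9% of all tested genes had in either direction. In all 3 clones 40 were 2-fold lower, against 3.6%. The list was drawn up with earlier results of these data known, so its direction is no independent evidence. Its largest falls were those of IFI44L (−4.07 ± 0.36), the membrane protein IFITM1 (−3.98 ± 0.48), EPSTI1 (−3.79 ± 0.37) and the antiviral ligase TRIM22 (−3.74 ± 0.27). The median log2 difference over the 41 genes was −2.55. SAMD9 and SAMD9L lay inside that range, with 18 of the 41 genes further down than SAMD9 and 21 further down than SAMD9L, and SLFN5 lay above all 41.

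The clones were also set in order for each gene. GR1 was the lowest clone for 35 of the 41 interferon-stimulated genes (85.4%) and for 30.8% of all tested genes, and it was the lowest for SAMD9 and SAMD9L. The full order of GR1 below GR3 below GR4, as in SAMD9 and SAMD9L, held for 16 of the 41 (39%) and for 11.9% of all tested genes. SLFN5 did not share it and was lowest in GR3, as were SLFN11 and SLFN12 and 38.9% of all tested genes. The genes share the same 3 arrays, so these shares describe the arrays and are not tests.

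Of type I interferon signalling 9 genes were tested. IRF9, the DNA-binding subunit of ISGF3, had 7.90 in the parental cells, 5.84 in GR1, 5.83 in GR3 and 5.82 in GR4 and fell by 2.07 ± 0.10 on the log2 scale (adjusted p = 0.0442). It was the single gene of the list past the threshold, 1 of 9 where 1.89% of all tested genes fell. STAT2, its partner, was at −2.20 ± 0.29 (adjusted p = 0.0518), IRF1 at −1.34 ± 0.18 (adjusted p = 0.0522) and IRF7 at −1.86 (adjusted p = 0.0635), and with IRF9 these made 4 of 9 genes 2-fold lower in all 3 clones, against 3.6% of all tested genes. IRF7 is named after its value was seen. The receptor chain IFNAR2 was at −0.70, the kinase TYK2 at −0.64, IFNAR1 at −0.11 and JAK1 at −0.0667, none of which passed, and the 4 are named after their values were seen.

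The genes whose 3 clone differences lay nearest to those of each of the pair were found by root mean square distance on the log2 scale, over the 3 clones and 16585 other genes. For SAMD9 these were AQP3, a water and glycerol channel (distance 0.28), MB, which encodes myoglobin (0.29), and IFI44, an interferon-stimulated gene (0.29). For SAMD9L they were PPFIA4, of the liprin family (0.0926), XAF1, an interferon-stimulated gene that promotes cell death (0.0940), and IFI35 (0.13). SAMD9 and SAMD9L were 0.44 apart from each other, more than each was from its 3 nearest genes. Those were picked as the closest of 16585 genes, so this comparison does not show how alike the pair is. The differences of these 6 nearest genes ran from −2.93 for IFI44 to −2.37 for IFI35, a range that the choice by likeness sets. With normexp AQP3 was at −1.04 and PPFIA4 at −0.32, and PPFIA4 was at −0.97 with the offset of 16. Each distance uses the same parental array, so likeness describes these 4 arrays only.

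The partners of SLFN11 at replication forks were counted in the same way. Of 13 genes tested 0 passed limma's threshold, where 4.06% of all tested genes did in either direction. An unadjusted p under 0.05 held for 5 of the 13, near the 31.9% of all tested genes. The median log2 difference was 0.26, and it was 0.54 without normalization, 0.51 with median scaling and 0.17 with normexp. CHEK1, the checkpoint kinase downstream of ATR, was at 0.93 ± 0.22 (adjusted p = 0.0987) and RPA3, the smallest RPA subunit, at −0.73 ± 0.11 (adjusted p = 0.0573). RPA1, the subunit that binds SLFN11, was at −0.26 ± 0.32 and turned to 0.0455 without normalization and to 0.00607 with median scaling. ATR itself was at 0.10 ± 0.13.

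Among 10 genes known to regulate SLFN11 expression or its silencing 3 rose by limma and 0 fell, against 2.17% and 1.89% of all tested genes. An unadjusted p under 0.05 held for 4 of the 10, near the 31.9% of all tested genes. ETS1, of the ETS transcription factors, had 5.42 in the parental cells, 8.04 in GR1, 7.66 in GR3 and 8.10 in GR4, and rose by 2.51 ± 0.23 (adjusted p = 0.0442). DNMT3B, a de novo DNA methyltransferase, was dim on the parental array at 2.01 and read 3.63, 3.92 and 4.0 on GR1, GR3 and GR4. It rose by 1.84 ± 0.20 (adjusted p = 0.0466), and with normexp it was at 0.0997. FLI1, an ETS factor that activates SLFN11 in Ewing sarcoma, had 4.86 on the parental array and 5.79, 5.76 and 5.78 on the clones, and rose by 0.92 ± 0.10 (adjusted p = 0.0481). With normexp ETS1 was at 1.24 and FLI1 at 0.21. EZH2, the Polycomb methyltransferase that can silence SLFN11, was at 0.12 ± 0.14 (adjusted p = 0.618) and turned to −0.10 with normexp. Of the SLFN12 complex, PDE3A was at −0.34 ± 0.24 (adjusted p = 0.429), and its relative PDE3B, near the floor on the parental array at 0.69, read 1.81 on GR1, 2.47 on GR3 and 2.17 on GR4, a difference of 1.46 ± 0.30 (adjusted p = 0.0814) that turned to −0.0317 with normexp.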

How the data were processed

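Amplified RNA labelled with Cy5 was hybridized to Toray 3D-Gene arrays, 1 per sample, per the labels' protocols. The deposited scanner files give each spot's median intensity and a background column, per the file headers; on the log2 scale the 2 columns correlated at 0.932 to 0.963, so the background column was not used except in an alternative. The authors' deposited table holds intensity after subtraction of the blank mean; its values were recomputed as that and a scaling to a median of 25 (largest deviation 6.11e-06).

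Here the blank mean, taken over the middle 90% of 2680 blank spots, was subtracted, and gene probes were quantile normalized, raised to a floor of 1.52 units (the lowest normalized signal above the limit, highest over arrays) and put on the log2 scale. 11 probes with a faulty spot were left out and 22796 were tested with limma 3.58.1 (R 4.3.3; lmFit, eBayes, two-sided, Benjamini-Hochberg over all tested probes, threshold 0.05, 2 residual degrees of freedom). A gene with several probes was read from its brightest probe. The design called for the blank subtraction. The fit was tested on simulated data in which the parental array varied like the clones, so that assumption itself was not checked. Symbols came from the platform annotation, 17231 current in RefSeq GRCh38.p14, 2899 updated through a synonym and 99 kept as they were.

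Genes named were all members and, of each list, up to 4 called genes with the largest differences (at least 2 genes), 11 fixed genes, the neighbours and the 3 nearest patterns. Members and lists were chosen with earlier results of these data known. Alternatives changed the background correction, normalization, filter, probe summary, fold and clones.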

Additional observations from a re-analysis of the deposited data

How the results depend on the processing

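The direction of SAMD9, SAMD9L and SLFN5 held under all 10 alternatives run for each, and that of SLFN11 under the 9 run for it; SLFN12, SLFN13 and SLFN14 turned sign under some, without passing a test. Their turned log2 differences were 0.00463 (normexp) and 0.0350 (without GR3) for SLFN12, 0.0238 (normexp), 0.0184 (no normalization) and 0.0853 (without GR4) for SLFN13, and 0.0139 (without GR1) for SLFN14. Without 1 clone each, SLFN11 ran from −0.52 to −0.11, SLFN12 ran from −0.38 to 0.0350, SLFN13 from −0.12 to 0.0853 and SLFN14 from −0.18 to 0.0139. Among the 7 genes, 0 passed limma with normexp, with no filter and without any 1 clone (1, 2 and 2 to 3 with an unadjusted p under 0.05), and 2 passed with the offset of 16 and with probes above the limit on all 4 arrays; 1 of 7 was 2-fold apart in all 3 clones with normexp. Over all tested genes limma's 674 calls became 147 with normexp, 3072 with the offset, 208 without normalization, 1020 with median scaling, 2127 above the limit on all 4 arrays, and 0 with no filter (5403 with an unadjusted p under 0.05) or without any 1 clone (3533 to 6079), where 1 residual degree of freedom was left. Of the calls 53.4% were higher, against 36.7% with normexp and 68.8% with median scaling. The 1205 genes 2-fold apart became 319 with normexp, 666 with the offset, 3083 at 1.5-fold and 382 at 3-fold. The median of all genes was −0.0150, and 0.0878 without normalization. Causes were not tested. No paired analysis was possible because the parental group has 1 array.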

Other observations

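SLFNL1, a Schlafen-like gene outside the cluster and outside the 7 genes, was read by 2 probes and is named after its values were seen. The brighter probe of SLFNL1 gave log2 signals of 4.39 in the parental cells, 4.63 in GR1, 4.34 in GR3 and 4.54 in GR4, a difference of 0.11 ± 0.16 (limma, adjusted p = 0.690). The dimmer one lay between 0.61 and 0.94 on the 4 arrays, close to the floor.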
